A study of Mus musculus with 6 samples.

Results

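The genes described here were those whose counts were at least 16-fold lower in bone cells of mice given dexamethasone than in those of control mice. They were chosen by their measured group means, as genes that had a symbol, a mean of at least 100 normalized counts in the control libraries, and a control mean at least 16 times the dexamethasone mean after 1 was added to both. Of the 29616 genes listed, 28087 had a symbol and 11911 of these reached the control mean. The ratio was reached by 28 genes, or 0.235% of the 11911. Omd, Ogn, Aspn and Fgf18 were left out by name, which left 24 genes. The choice was made on the very comparison described, so the values of these genes are a description with no test, and the size of their difference is not in itself a finding.

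All libraries came from C57BL/6 mice. The 3 dexamethasone libraries came from mice that received 0.08 µg/g dexamethasone, a synthetic glucocorticoid, every day for 4 weeks from 8 weeks of age. The 3 control libraries came from mice of the same starting age, 8 weeks, that were given no dexamethasone. For its mouse model the study gives saline as the control. The labels name the material as bone cells, and the study's methods describe Osteocalcin-positive cells isolated from demarrowed bones. Neither source says whether a library came from 1 mouse or from a pool, so the spread between libraries may be in part technical.

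Glucocorticoids enter cells and bind the glucocorticoid receptor, a transcription factor that raises some genes and lowers others, directly or through other factors. In bone, long exposure lowers bone formation by osteoblasts, the cells that make and mineralize the collagen matrix. Osteoblasts and their precursors also receive and release local signals, among them insulin-like growth factors and Wnt proteins, which are known to favour bone formation.

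The 6 libraries held 72596611 to 89910728 reads. Of 10 osteoblast markers, 9 were called lower with dexamethasone, among them Col1a1 from a mean of 961923 to 261192 normalized counts and Runx2 from 15301 to 4541. Also among the 9 were the genes of Osteocalcin, the protein named for the isolation, Bglap from 107 to 12.2 and Bglap2 from 324 to 31.3. Spp1, which encodes osteopontin, was the other marker and was called higher, from 33595 to 1279674. Their summed level, 29924 to 31158 CPM in the control and 25632 to 26256 CPM in the dexamethasone libraries, was 58.8% Spp1 with dexamethasone, where CPM is a share of the counts of a library scaled to the usual common total. All 8 proliferation markers were called higher, and their sum stood at 411 to 445 CPM in the control and 2363 to 2540 CPM in the dexamethasone libraries. The summed smooth muscle and pericyte markers, 1952 to 1987 and 274 to 280 CPM, were 94.6% Acta2 in the control libraries, and of 6 tested Acta2 and Mcam were called lower and 4 were not called. The endothelial sum, 28.1 to 29.2 and 40.1 to 45.6 CPM, was mostly Vwf, with means of 1825 and 3097 normalized counts. Of 7 endothelial markers 6 had higher means with dexamethasone and 1 a lower one, and of 6 tested 1 was called higher and 5 were not called. The endothelial cadherin Cdh5 was at 3 reads or fewer in every library. The osteoclast sum, 169 to 169.9 and 99.7 to 100.7 CPM, was 99.8% Ctsk in the control libraries. Acp5, Ocstamp and Atp6v0d2 had higher means with dexamethasone, while Mmp9 had a lower one, 9.05 after 20.6 normalized counts in the control. Of 3 osteoclast markers tested, 1 was called higher, 1 lower and 1 not. The chondrocyte sum, 78.1 to 82.6 and 262 to 291 CPM, was mostly Sox9 and Col2a1, while Comp and Col10a1 had lower means. The adipocyte sum, 0.357 to 0.464 and 16.8 to 18.3 CPM, was 98.3% Fabp4 with dexamethasone, while Adipoq and Plin1 had means of 4.03 and 2.41 normalized counts in the control and 1.39 and 1.02 in the dexamethasone libraries. The osteocyte sum, 106 to 110 and 222 to 231 CPM, was 97.1% Pdpn in the control libraries. Of 4 osteocyte markers tested, 1 was called higher and 3 were not called. Dmp1 had means of 38.5 and 5639 normalized counts, while Mepe had a lower mean with dexamethasone. The fibroblast and tendon sum was 111 to 117 and 208 to 213 CPM, and of 5 tested 2 were called higher, 1 lower and 2 not. Lymphoid, erythroid and skeletal muscle markers summed to less than 1 CPM in every library. The macrophage sum was 2.76 to 3.04 CPM in the control and 6.83 to 8.35 CPM in the dexamethasone libraries. Of 3 macrophage markers tested, 2 were called higher and 1 was not called. The neutrophil sum was 9.65 to 10.13 CPM in the control and at least 10.5 CPM in the dexamethasone libraries, and none of 3 tested was called. None of these marker lists held any of the 24 genes. In bulk samples such as these, fewer cells of a type and less RNA per cell cannot be told apart, and the part of the marker shifts in the values below was not tested.

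Together the 24 genes summed to 702 to 731 CPM in the control and 15.99 to 18.13 CPM in the dexamethasone libraries. Their control means ran from 102 to 14215 normalized counts, with a median of 375, and their dexamethasone means from 1.09 to 486, with a median of 16.9. Only 7 of them lay above the median control mean of 2491 of all 11911 genes, so most were genes of modest count.

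The median ratio of control to dexamethasone was 30.8, a median log2 ratio of -4.94, beside a median log2 ratio of 0.03 for the other 11887 genes with a control mean of at least 100. The ratio was at least 20 for 18 genes, at least 32 for 12 and at least 64 for 6. The 9 highest control means, from 1607 normalized counts up, were those of Myl9, Thsd4, Megf6, Hist1h1c, Fndc1, Gm31520, Slc26a7, Igf1 and Wnt4. The other 15, Rerg, Hist1h2bg, Gm19299, Rspo3, Astn1, Nos1, Hist1h2ac, Nckap5, Bcl11b, Prlr, Ndnf, Mrgprf, Krtap1-5, Gm48662 and Itgbl1, had control means from 102 to 456.2. With dexamethasone 10 genes had a mean under 10 normalized counts and 5 a mean of at least 100.

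**Figure D1:**
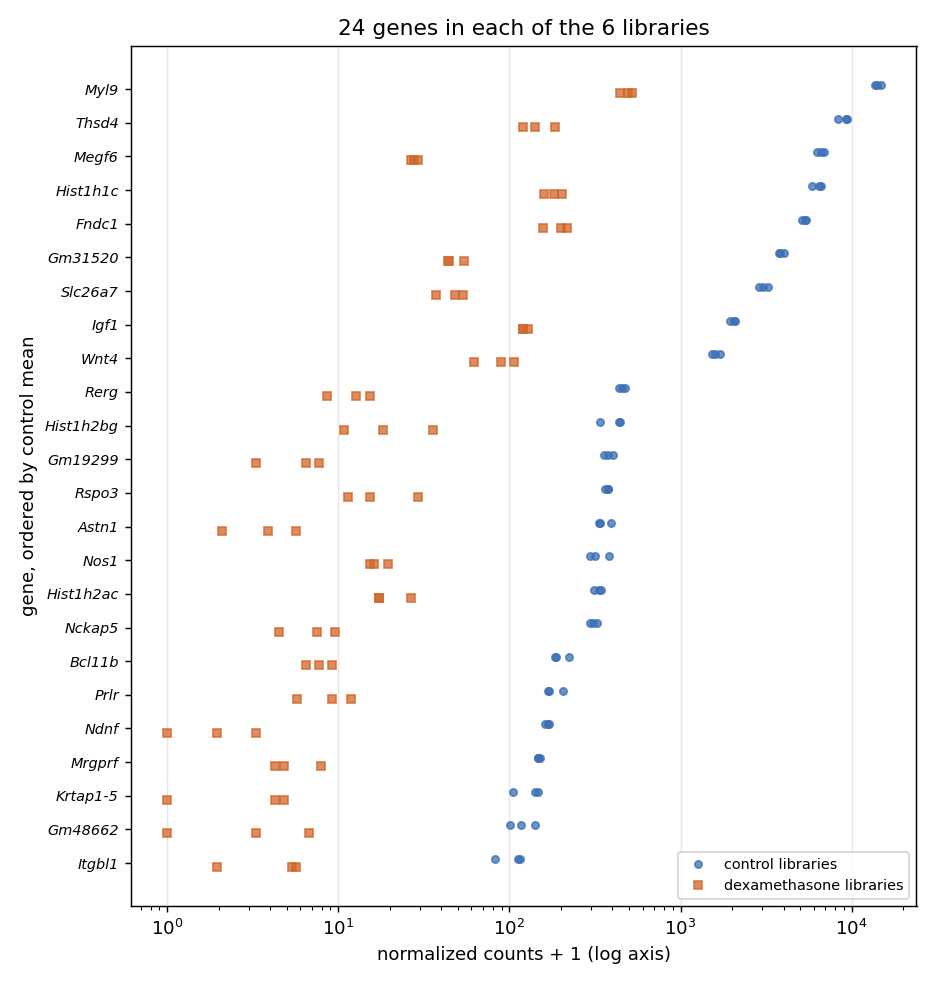
Normalized counts plus 1 (log axis) of the 24 genes in each library, with 3 control libraries (circles) and 3 dexamethasone libraries (squares) per gene, ordered by control mean. In each row the circles sit far to the right of the squares, from 14215 against 486 on average for Myl9 to 102 against 3.32 for Itgbl1, and the squares spread more where counts are few.

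The spread between control libraries was small. Its coefficient of variation, the SD divided by the mean, had a median of 5.53% over the 24 genes and ran from 1.69% for Mrgprf to 17.9% for Krtap1-5, beside a median of 3.15% for the other genes with a control mean of at least 100. In the dexamethasone libraries, where few reads were left, the median was 29.0%, beside 32.6% for all genes within the same range of dexamethasone means. Of all genes listed, the 17442 whose mean over the libraries reached 10 were tested with limma. A call took a log2 fold change of 1 or more in size together with an adjusted p-value under 0.05, and 22.3% were called, made up of 10.6% lower and 11.7% higher with dexamethasone. Scaling all libraries to the same total turned this balance, with 1763 genes higher and 2177 lower in place of 2037 and 1857. The groups of libraries did not overlap for 74.7% of these genes, and every dexamethasone library lay under every control library for 36.4%. All 24 genes passed the filter on low values through their control level, were called lower and had no overlap, as a choice by the same values makes them.

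**Figure D2:**
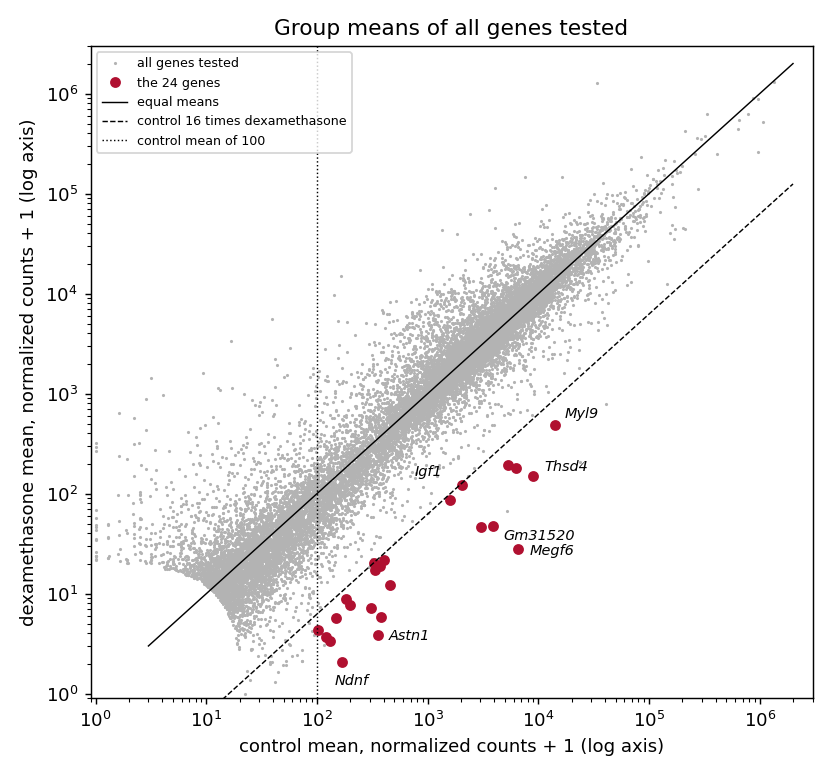
Mean normalized counts plus 1 in the dexamethasone libraries against those in the control libraries (both log axes) for all genes tested (grey) and for the 24 genes (red), with lines at equal means, at a ratio of 16 and at a control mean of 100. The red points lie under the line of a ratio of 16 at control means from 102 to 14215, Megf6 farthest from it, and the grey points under that line are the genes left out by name and genes with a control mean under 100.

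Gene starts were looked up in RefSeq for windows of 300 bases, 250 before the start and 50 from it on, on the GRCm38.p6 build. The table held a window for 17 of the 24 genes, the histone genes under their current symbols, and none for Gm31520, Slc26a7, Rerg, Rspo3, Ndnf, Mrgprf and Gm48662. For each gene only its first window was read, which may not be the start in use in these cells. The windows below are those of genes taken up by class further on: the myosin light chain gene with most reads, the gene with the largest ratio, the signalling genes Wnt4 and Igf1, and a histone gene. Capitals mark matches on either strand of 4 motifs. They are the TATA box, searched as TATAAA, and the GC box, searched as GGGCGG. The other motifs are the core of the glucocorticoid receptor's binding element, searched as AGAACA, and the AP-1 element, searched as TGANTCA.
Myl9, chr2:156775214-156775513, plus strand: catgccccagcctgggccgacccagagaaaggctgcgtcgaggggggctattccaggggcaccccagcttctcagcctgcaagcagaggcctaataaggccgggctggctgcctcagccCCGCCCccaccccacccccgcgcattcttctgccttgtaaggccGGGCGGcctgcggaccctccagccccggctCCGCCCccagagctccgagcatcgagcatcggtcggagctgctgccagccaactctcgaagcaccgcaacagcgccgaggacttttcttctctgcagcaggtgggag
Megf6, chr4:154170463-154170762, plus strand: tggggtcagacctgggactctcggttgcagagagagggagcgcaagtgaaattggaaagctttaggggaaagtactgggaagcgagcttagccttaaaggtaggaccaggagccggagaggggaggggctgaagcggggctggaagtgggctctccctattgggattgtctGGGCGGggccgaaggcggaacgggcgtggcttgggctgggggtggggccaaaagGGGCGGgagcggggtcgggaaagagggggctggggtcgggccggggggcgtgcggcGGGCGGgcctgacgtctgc
Wnt4, chr4:137277385-137277684, plus strand: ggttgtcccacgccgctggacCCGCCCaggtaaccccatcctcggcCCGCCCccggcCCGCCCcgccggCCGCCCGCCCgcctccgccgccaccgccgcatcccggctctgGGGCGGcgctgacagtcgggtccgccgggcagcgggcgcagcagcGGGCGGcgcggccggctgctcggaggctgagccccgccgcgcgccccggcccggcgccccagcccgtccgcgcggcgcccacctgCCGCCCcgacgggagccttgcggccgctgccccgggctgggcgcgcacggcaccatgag
Igf1, chr10:87860861-87861160, plus strand: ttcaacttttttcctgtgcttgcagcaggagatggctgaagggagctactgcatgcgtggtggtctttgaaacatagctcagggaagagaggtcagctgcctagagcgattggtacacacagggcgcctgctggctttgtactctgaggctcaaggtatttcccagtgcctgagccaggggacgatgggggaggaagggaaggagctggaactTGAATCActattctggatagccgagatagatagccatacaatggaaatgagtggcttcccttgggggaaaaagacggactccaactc
Hist1h2ac, chr13:23683910-23684209, minus strand: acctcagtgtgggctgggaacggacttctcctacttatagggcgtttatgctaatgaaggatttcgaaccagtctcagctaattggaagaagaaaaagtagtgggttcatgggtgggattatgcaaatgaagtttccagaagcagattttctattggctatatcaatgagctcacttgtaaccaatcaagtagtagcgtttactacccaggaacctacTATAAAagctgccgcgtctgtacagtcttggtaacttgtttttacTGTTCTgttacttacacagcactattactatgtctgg

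The windows of the 24 genes were of several kinds. A TATA box match was found in 6 of 17 windows (35.3%), those of Fndc1, Hist1h2bg, Gm19299, Hist1h2ac, Bcl11b and Krtap1-5, beside 14.2% of all 27025 windows, 6.56% of the 9210 windows of other genes with a control mean of at least 100, and 17.3% of the 75 windows of genes raised at least 16-fold. It began 43 bases before the start in Hist1h2bg, 32 in Hist1h2ac, 30 in Gm19299, 219 in Fndc1 and 5 in Bcl11b, while Krtap1-5, a hair keratin-associated gene, had 4 matches that in part overlapped. A GC box match was found in the same number of windows, 6 of 17 (35.3%), beside 35.9% of all windows, 66.6% of those of the other genes and 33.3% of those of the raised genes. Wnt4 held 8 of these matches, Myl9 and Megf6 held 3 each, and Thsd4, Fndc1 and Itgbl1 held 1 each. The glucocorticoid core was found in 1 of 17 windows (5.88%), that of Hist1h2ac, beside 19.02% of all windows, 11.6% of those of the other genes and 17.3% of those of the raised genes. The AP-1 element was found only in the window of Igf1, 37 bases before the start, which is 5.88% of the windows beside 7.93% of all, 4.64% of those of the other genes and 18.7% of those of the raised genes. A pair of the glucocorticoid core facing its reverse complement 3 bases apart was found in none of the 17 windows and in 1 of the 27025. Matches to TGTGGT (RUNX) in Krtap1-5, TAATTA (homeodomain) in Itgbl1 and GGAATG (TEAD) in Nckap5 stood alone, and none of the 17 windows matched TGACGTCA (CRE), TTCNNNGAA (STAT) or CACGTG (E box). In this order, these motifs were in 16.9%, 5.31%, 14.6%, 1.88%, 8.47% and 7.24% of all windows and in 11.9%, 2.29%, 11.5%, 3.45%, 6.68% and 10.5% of those of the other genes. The G and C content had a median of 50.7%, from 38.7% in Krtap1-5 to 84.3% in Wnt4. The median was 52.7% for all windows, 51.3% for the raised genes and 61.3% for the other genes with a control mean of at least 100. The ratio of observed to expected CpG had a median of 0.464, beside 0.389 for all windows, 0.306 for the raised genes and 0.784 for the other genes. A match in such a window describes its letters and no binding.

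Matrix and other secreted proteins made up 4 of the 24 genes, and 3 of them had high levels for the set. Per kilobase of exon, the control level was 839 normalized counts for Megf6, 645 for Thsd4 and 534 for Fndc1, against 24.2 for Itgbl1. Megf6 encodes a secreted protein with many EGF-like repeats. It stood at 6311, 6906 and 6603 normalized counts in the 3 control libraries and at 26.7, 28.3 and 25.6 with dexamethasone. The 3 values of each group lay close together, and no other gene of the set had as large a ratio, 237. Values are listed for replicates 1, 2 and 3 in that order, here and below. The Megf6 means were 6607 ± 298 and 26.9 ± 1.39 (SD, n = 3 in each group, as for all means below), a log2 ratio of -7.89.

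Thsd4 encodes an ADAMTS-like protein that binds fibrillin microfibrils in the matrix. Thsd4 stood at 8349.8, 9435 and 9275 normalized counts in the 3 control libraries and at 183, 141 and 119.8 with dexamethasone. The dexamethasone libraries differed among themselves by more than those of Megf6, with replicate 1 the highest and replicate 3 the lowest. The ratio of 60.6 corresponded to a log2 ratio of -5.92. Fndc1, a secreted protein with fibronectin type III domains, had 5158, 5328 and 5392 in the control and 216, 157 and 199 in the dexamethasone libraries. All 3 control values of Fndc1 lay within a narrow band. Its means of 5293 ± 121 and 190.5 ± 30.2 gave a ratio of 27.6 and a log2 ratio of -4.79. Itgbl1, a secreted protein with repeats like those of integrin beta chains, stood at the low end, with 111, 81.2 and 114 normalized counts in the control libraries, against 1, 4 and 4 reads left with dexamethasone. Control replicate 2 was the lowest control library for Itgbl1. Its ratio of 23.9 rested on those few reads.

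Signals and their receptors made up 6 genes. Igf1 encodes insulin-like growth factor 1, a growth factor that acts on osteoblasts through the receptor Igf1r. Igf1 stood at 2061, 1955 and 2084 normalized counts in the 3 control libraries and at 119, 119 and 128 with dexamethasone. Both groups were tight, and the ratio of 16.5 stood just inside the limit. The means were 2034 ± 68.9 and 122 ± 5.13, a log2 ratio of -4.05.

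Wnt4 encodes a secreted Wnt ligand, and Rspo3 encodes R-spondin 3, a secreted protein that strengthens Wnt signals by keeping Frizzled receptors at the cell surface. Wnt4 stood at 1535, 1703 and 1584 normalized counts in the control and at 88.7, 61.0 and 106 in the dexamethasone libraries. Dexamethasone replicate 2 was the lowest and replicate 3 the highest of its group. The means of Wnt4 were 1607 ± 86.2 and 85.2 ± 22.6, a ratio of 18.7 and a log2 ratio of -4.22. Rspo3 had 375, 362 and 376 in the control libraries and 14.3, 28.3 and 10.5 in the dexamethasone libraries. Here dexamethasone replicate 2 was the highest of its group, so the library with the most remaining counts was not the same for Wnt4 and Rspo3. Rspo3 had means of 371 ± 7.95 and 17.7 ± 9.41, a ratio of 19.9. A gene on the opposite strand, Gm48159, overlaps 13.07% of the exon bases of Rspo3, and the strand setting of the counting is not given in the sources used here.

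Ndnf encodes a secreted neurotrophic factor with fibronectin type III domains. Ndnf had 167, 160.5 and 170.5 normalized counts in the control libraries, from 182, 164 and 194 reads. In the dexamethasone libraries it had 1, 0 and 2 reads. Ndnf was the only one of the 24 genes with 3 reads or fewer in every dexamethasone library, and 3 reads was the floor set here for counts close to 0. Over the pooled reads, 540 against 3, its ratio without the added count was 157, with an exact 95% counting interval from 53.3 to 761. Such intervals, here and below, cover counting error only, since reads without molecular identifiers are not independent molecules. Pooling the libraries of a group also leaves out the spread between them. The genes were chosen by the ratio of these same counts, so the lower ends of the intervals are in part fixed by the choice. The intervals therefore describe the counts and do not test the ratio.

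Prlr encodes the receptor for prolactin, and Mrgprf an orphan G protein-coupled receptor of the Mas-related family. Prlr stood at 166, 170.3 and 204 normalized counts in the control and at 4.77, 10.9 and 8.14 in the dexamethasone libraries. Its means were 180.1 ± 20.7 and 7.94 ± 3.07, a ratio of 20.3. Mrgprf had 149.6, 146 and 145 in the control libraries and 3.82, 3.27 and 6.98 in the dexamethasone libraries. Relative to their mean, the control values of Mrgprf were the closest together of all 24 genes. Its ratio was 26.0 and its log2 ratio -4.70. Per kilobase, these 6 genes had control levels from 11.7 normalized counts for Prlr to 383 for Wnt4, with Igf1 at 205, Rspo3 at 120.1, Mrgprf at 66.3 and Ndnf at 16.4.

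Histone genes made up 3 of the 24. Hist1h1c encodes the linker histone H1.2, which binds DNA between nucleosomes, and Hist1h2bg and Hist1h2ac encode core histones H2B and H2A. Hist1h1c stood at 5854, 6604 and 6455 normalized counts in the 3 control libraries and at 203, 158 and 181 with dexamethasone. Its means of 6304 ± 397 and 181 ± 22.6 gave a ratio of 34.7 and a log2 ratio of -5.12, and per kilobase its control level was 4041. Hist1h2bg had 337, 439 and 434 in the control libraries and 17.2, 9.81 and 34.9 in the dexamethasone libraries. Both groups of Hist1h2bg were wide, control replicate 1 being low and dexamethasone replicate 3 high. The ratio of means was 18.7, whereas the lowest control library was 9.42 times the highest dexamethasone library with 1 added to each, the smallest such value of the 24 genes. Hist1h2ac had 309, 341 and 334 in the control libraries and 25.8, 16.4 and 16.3 in the dexamethasone libraries, a ratio of 16.1 and the one nearest the limit.

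Reads of clustered histone genes can fall on several near-identical copies. In the GENCODE M21 annotation 52.57% of the 75-base windows of Hist1h2bg occur in no other gene, against 88.91% for Hist1h2ac and 93.34% for Hist1h1c, so the count of Hist1h2bg is uncertain. The library kit selects polyadenylated RNA, and most transcripts of clustered histone genes end in a stem-loop without a poly(A) tail, so these counts cover the polyadenylated transcripts only. Other clustered histone genes, examined after the values were seen, were mostly lower too. Of 32 tested, 26 were called lower (81.25%, beside 10.6% of all genes tested), 1 higher and 5 not, with a median log2 fold change of -1.96. Hist1h2bc, the neighbour of Hist1h2ac, had a mean of 4925 in the control and 612 in the dexamethasone libraries, which is -3.01 as log2 fold change (adjusted p = 1.172e-24 by limma). Of 9 variant histone genes outside the clusters, 2 were called higher, H2afz with a log2 fold change of 1.32 and H2afx with 1.51, and none lower. The summed proliferation markers, given above, were higher in the dexamethasone libraries, and their part in the histone values was not tested.

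Myl9 and Krtap1-5 were the 2 genes of the cytoskeleton and of keratin-associated proteins. Myl9 encodes a regulatory light chain of smooth muscle and nonmuscle myosin. Myl9 stood at 13769, 14814 and 14063 normalized counts in the 3 control libraries and at 492, 445 and 522 with dexamethasone. Its means were 14215 ± 539 and 486 ± 39.0, a ratio of 29.2 and a log2 ratio of -4.87. Per kilobase it had the highest level of the set in both groups, 12233 in the control and 419 in the dexamethasone libraries. Other contractile genes were looked at after the values were seen. Of 15 tested, 6 were called lower (40.0%, beside 10.6% of all genes tested), none higher and 9 not. Acta2, the smooth muscle actin, had means of 144918 and 12449 normalized counts, which is -3.54 as log2 fold change (adjusted p = 3.803e-28 by limma). Lmod1, Tpm1, Actg2, Myl6b and Mylk were also called lower, with -2.36, -2.19, -2.12, -1.83 and -1.49. By contrast Myl12a, a close relative of Myl9, had means of 13912 and 12162, which is -0.19 as log2 fold change (adjusted p = 3.039e-05 by limma), and was not called. Desmin (Des), another smooth muscle marker, had a log2 fold change of 0.17 and Tagln of 0.06, and neither was called. Of the 7 smooth muscle and pericyte markers, 4 had lower means with dexamethasone. They were Acta2 and Mcam, both called lower, Myh11 with means of 44.2 and 24.8 and Cnn1 with 6.70 and 2.23. The other 3 had higher means, Des, Cspg4 with 7548 and 10185 and Rgs5 with 12.3 and 21.1. The part of such cells in the value of Myl9 was not tested.

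Krtap1-5, known from hair, had 147, 141 and 104 normalized counts in the control libraries, against 4, 3 and 0 reads left with dexamethasone. Control replicate 3 was low for Krtap1-5, which gave it the largest control coefficient of variation of the set. Its ratio was 39.1 with the added count. From the pooled reads, 422 against 7, it was 52.4 (exact 95% counting interval 25.2 to 131).

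Slc26a7, Nos1 and Rerg were a transporter, an enzyme and a small GTPase. Slc26a7 encodes an anion transporter of the cell membrane. Slc26a7 stood at 2864, 3043 and 3260.2 normalized counts in the control and at 52.5, 46.9 and 36.05 in the dexamethasone libraries. With means of 3056 ± 198 and 45.1 ± 8.35, its ratio was 66.3 and its log2 ratio -6.05. Within the same family Slc26a2, the sulfate transporter of cartilage and bone, had means of 19250 and 4930 normalized counts, which is -1.97 as log2 fold change (adjusted p = 3.237e-24 by limma), while Slc26a6 had a log2 fold change of -0.0054 and was not called. Nos1, the neuronal nitric oxide synthase, had 379, 316 and 295 in the control libraries and 14.3, 15.3 and 18.6 in the dexamethasone libraries. Control replicate 1 was the highest of its group for Nos1, and the ratio was 19.4. Rerg, a Ras-like GTPase known as regulated by estrogen, had 437.9, 474.6 and 456.1 in the control libraries and 14.3, 7.63 and 11.6 in the dexamethasone libraries. The ratio of Rerg was 37.5 and its log2 ratio -5.23.

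Astn1, Nckap5 and Bcl11b had low levels per kilobase, between 24.4 and 35.9 in the control libraries. Astn1 encodes astrotactin 1, a membrane protein of neurons. Astn1 had 334, 337 and 389 normalized counts in the control libraries, against 3, 1 and 4 reads left with dexamethasone. Its ratio was 91.6 with the added count, and from the pooled reads, 1151 against 8, it was 125 (exact 95% counting interval 63.3 to 291). Nckap5, a protein named for its association with the adaptor Nck, had 322, 308 and 294 in the control libraries and 8.59, 6.54 and 3.49 in the dexamethasone libraries. The ratio of Nckap5 was 42.9. Bcl11b, a zinc finger transcription factor of T cell and skin development, had 187, 223 and 184 in the control libraries and 6.68, 5.45 and 8.14 in the dexamethasone libraries. Its ratio was 25.7, while the summed lymphoid markers were at most 0.197 CPM in any library.

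Noncoding genes made up the last 3. Gm31520 is annotated as a transcribed processed pseudogene, and Gm19299 and Gm48662 as long intergenic noncoding RNAs. Gm31520 stood at 3740.2, 3823 and 4013 normalized counts in the control and at 42.9, 43.6 and 53.5 in the dexamethasone libraries. Its means were 3859 ± 140.04 and 46.7 ± 5.91, a ratio of 81.0 and a log2 ratio of -6.34. Per kilobase its control level was 2141, and all of its 75-base windows occur in no other gene. Gm19299 had 358, 401 and 378 in the control libraries and 6.68, 5.45 and 2.33 in the dexamethasone libraries, a ratio of 65.3. Gm48662 had 99.2, 116 and 139.7 in the control libraries, against 6, 0 and 2 reads left with dexamethasone. Both groups of Gm48662 were wide. Its ratio was 32.4, a log2 ratio of -5.02 that became -5.79 without dexamethasone replicate 1, which held 6 of its 8 reads. From the pooled reads, 386 against 8, the ratio was 42.0 (exact 95% counting interval 21.1 to 97.9).

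**Figure D3:**
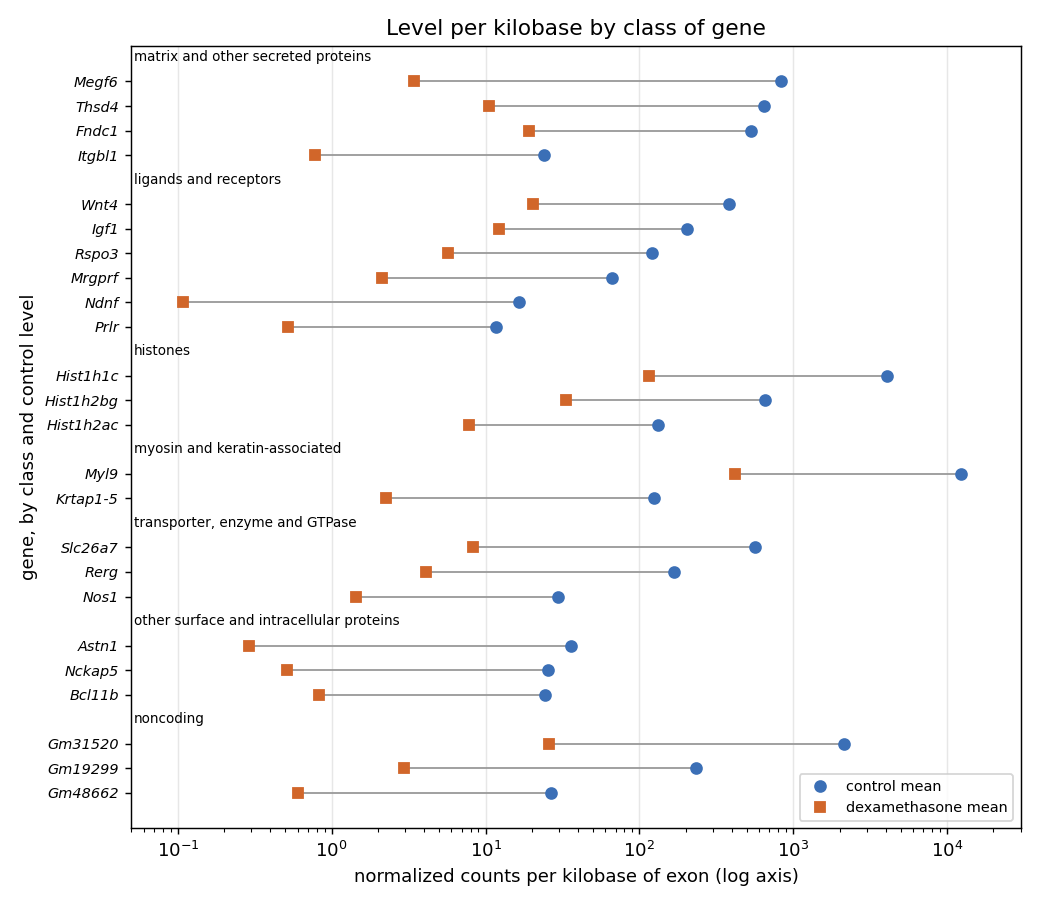
Mean normalized counts per kilobase of exon (log axis) of the 24 genes by class, in the control (circles) and the dexamethasone libraries (squares), joined by a line. Control levels ran from 11.7 for Prlr to 12233 for Myl9, and each dexamethasone square lies left of its control circle, from 0.108 for Ndnf to 419 for Myl9.

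Set beside all other genes with a control mean of at least 100, the 24 genes were low per length. Their median control level was 149.7 normalized counts per kilobase, beside 539 for those genes, while the median exon length was 4.35 kilobases, beside 4.47. With 21 protein-coding genes and 3 others, 14 of the 24 fell in 9 gene lists drawn up by symbol and 10 fell in none: Thsd4, Megf6, Hist1h1c, Rerg, Hist1h2bg, Hist1h2ac, Nckap5, Bcl11b, Ndnf and Krtap1-5. The counts that follow cover the other tested genes of each list, for which the background is 10.6% lower and 11.7% higher. In the Wnt list, which held Wnt4 and Rspo3, 16 of 41 others were called lower (39.0%) and 5 higher, with a median log2 fold change of -0.63. In the list of growth factors and their receptors, which held Igf1 and Prlr, 18 of 69 were lower and 13 higher, with a median of -0.08. The adhesion and surface proteoglycan list, with Astn1 and Itgbl1, had 38 of 167 lower and 25 higher. The matrix glycoprotein list, with Fndc1, had 22 of 73 lower and 17 higher. The list of G protein-coupled receptors, with Mrgprf, had 22 of 82 lower and 20 higher. For transporters, with Slc26a7, 27 of 310 were lower and 43 higher, and for metabolic enzymes, with Nos1, 45 of 276 were lower and 45 higher. The muscle and cytoskeletal list, with Myl9, had 21 of 106 lower and 19 higher. The noncoding and unnamed list, with the 3 Gm genes, had 635 of 4260 lower and 441 higher. The medians of the transporter, muscle and enzyme lists, 0.04, 0.06 and 0.01, were -0.08, -0.06 and -0.11 when all libraries were scaled to the same total, which moved the median of all genes to -0.11, so no direction is given for them.

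**Figure D4:**
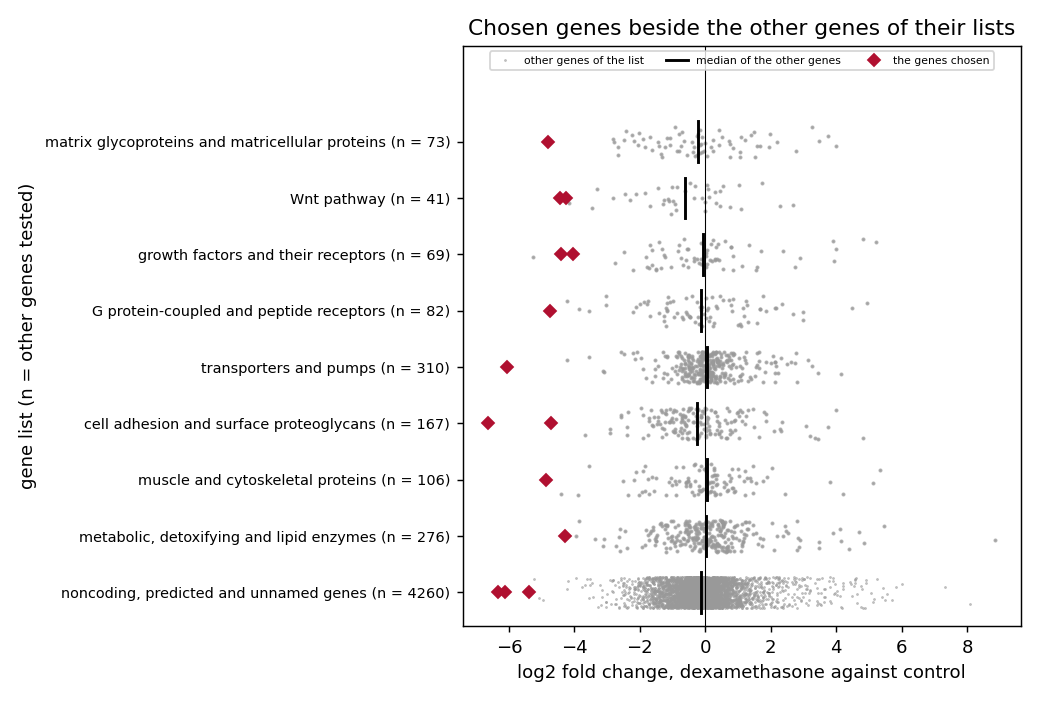
Log2 fold change of dexamethasone against control (limma on log2 of normalized counts plus 1) for the 9 gene lists that held 1 or more of the 24 genes (red), with the other tested genes of each list (grey) and their median (black bar). The medians of the others lay between -0.63 for the Wnt list and 0.06 for the muscle list (-0.06 with all libraries scaled to the same total), and the grey points spread to both sides of 0 in every list.

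Among the most abundant other genes of the lists with several of the 24 genes, only Gpc1 was called. In the Wnt list Ctnnb1, which encodes beta-catenin, had means of 31588 and 29233 normalized counts, which is -0.11 as log2 fold change (adjusted p = 0.01102 by limma). Dkk3 had means of 39445 and 19840 and a log2 fold change of -0.99, short of the cut-off, and it passed at -1.11 when all libraries were scaled to the same total. The co-receptor gene Lrp6 had a log2 fold change of -0.63. Of the growth factor list Csf1, Ddr2 and Igf2r had log2 fold changes of 0.38, 0.02 and -0.20. In the adhesion list the proteoglycan gene Gpc1 was called lower, with means of 171336 and 44265 and a log2 fold change of -1.95 (by limma, adjusted p = 8.778e-22), while Itgb1 had 0.11 and Fat1 0.03. The noncoding genes AI506816, 2610507B11Rik and 2900097C17Rik had 0.96, 0.60 and -0.40.

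Partners of Igf1, Wnt4 and Rspo3, chosen after the values were seen, moved in both directions. Igf1r, the receptor of Igf1, was called higher, with means of 12706 and 27621 normalized counts and a log2 fold change of 1.12 (by limma, adjusted p = 3.154e-19), which was 0.95 and under the cut-off after quantile normalization. The binding protein genes Igfbp2, Igfbp4 and Igfbp5 were called lower with -1.82, -1.32 and -1.73. Pappa2, a protease that frees Igf1 from binding proteins, had means of 23361 and 2714 and a log2 fold change of -3.11. Beside Rspo3, its relative Rspo2 was called lower with means of 2839 and 288 and a log2 fold change of -3.30, and Rnf43, a ubiquitin ligase that R-spondins inhibit, with -2.83. The R-spondin receptor Lgr6 was called higher, with means of 1008 and 6487 and a log2 fold change of 2.69, while Lgr4 had -0.33. Among Wnt ligands other than Wnt4, Wnt10b was called lower with -1.85 and Wnt5a with -1.15, Wnt5b was called higher with 1.02 (0.90 and not called at the same total), and Wnt9a, Wnt6 and Wnt10a had -0.85, 0.74 and 0.08. Relatives of the matrix genes differed likewise: Megf10 was called higher with 1.66, and Adamtsl3, an ADAMTS-like relative of Thsd4, was called lower with -2.11.

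Genes next to the 24 along the chromosomes were looked up in the GENCODE M21 annotation. The nearest tested gene without overlap was taken on each side at any distance, from 0.18 kilobases for Hist1h2bg to 1822 for Bcl11b. Of 45 such genes outside the set, 11 were called lower (24.4%, beside 10.6% of all genes tested), 7 higher and 27 not, with a median log2 fold change of -0.18, and none was lower by 16-fold. Pappa2 lies 19.95 kilobases from Astn1, and Tpm1, with a log2 fold change of -2.19, 84.15 from Gm19299. Runx1t1, 608.78 kilobases from Slc26a7, had -2.88 and 2610300M13Rik, 167.1 from Gm31520, had -3.46. In the other direction Krt23, a keratin gene 86.84 kilobases from Krtap1-5, had means of 2.20 and 49.2 and a log2 fold change of 4.22. Among the neighbours called lower, 3 were histone genes, beside Hist1h2bg and Hist1h2ac.

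At the limit of 16 the set had no clear edge. Just inside stood Hist1h2ac at 16.1, Igf1 at 16.5, and Wnt4 and Hist1h2bg at 18.7. Just outside stood P2rx6, an ATP-gated channel, with means of 293 and 17.4 normalized counts, Nrep with 2333 and 149, the alcohol dehydrogenase gene Adh1 with 1001 and 63.8, and Pgm5 with 508 and 32.1. Their ratios were 15.95, 15.5, 15.5 and 15.4. The 3 genes with the lowest control means were Itgbl1, Gm48662 and Krtap1-5. The 4 genes left out by name had control and dexamethasone means of 5218 and 66.6 for Omd, 40967 and 786 for Ogn, 23799 and 206 for Aspn, and 114 and 2.07 for Fgf18.

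How far the choice of genes rested on single libraries was described by choosing on 5 libraries. The library left out was then read against the mean of the other group. That mean was itself used in the choice, so a high ratio in the library left out is in part built in. Leaving out each library in turn, 23 to 26 genes were chosen, of which 22 to 24 were among the 24. Hist1h2ac was lost in 4 of the 6 choices, without control replicate 2 or 3 or dexamethasone replicate 2 or 3. Itgbl1 was lost without control replicate 1 or 3, and Hist1h2bg without dexamethasone replicate 2. The library left out showed a ratio of at least 16 for 21, 22 and 22 of the genes chosen without control replicates 1, 2 and 3, and for 23, 20 and 20 of those chosen without dexamethasone replicates 1, 2 and 3. The lowest ratio in a library left out was 10.9, for Tmem252, which was chosen only without dexamethasone replicate 1. As a stricter reading, the lowest control library was at least 16 times the highest dexamethasone library, each with 1 added, for 15 of the 24 genes, up to 215 times for Megf6.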

How the data were processed

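The deposited table holds one signal value per gene and library, read counts that the authors divided by DESeq2 size factors, after alignment with STAR 2.7.10a (DESeq2 1.36.0, GRCm39, per the labels' processing notes). Total RNA was sequenced with a stranded mRNA kit that selects polyadenylated RNA. Which annotation release was used, and with what strand setting reads were counted, is not given in the sources used here. All values (100.0%) came out as whole reads within 0.01 when divided by the worth of 1 read, and these reads gave the depth.

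The 24 genes were found by the rule on group means with 1 added. All are named with their values in every library, together with the 4 genes nearest to the ratio of 16 on each side, the 3 with the lowest control means and the 4 left out. The members, their classes, the gene lists and the promoter motifs were chosen with earlier results of these data known, and the relatives after the values were seen. In addition, the 3 most abundant tested genes of each list holding more than 1 of the 24 genes were named. Genes with a mean of at least 10 were tested with limma 3.58.1 (trend, R 4.3.3) on log2 of the value plus 1, and Benjamini-Hochberg adjustment ran over all 17442. A call needed a log2 fold change of 1 or more in size with an adjusted p under 0.05. Fold changes on this scale understate the change of low genes. With 3 libraries against 3 an exact permutation test cannot go below 0.1, so none was used. Alternatives fitted the recovered reads with edgeR 4.0.16 or with DESeq2 1.42.0, and the scripts were tested on simulated data. Exon lengths, 75-base windows and neighbours came from GENCODE M21, whose build differs from that of the files, so gene names alone were joined and coordinates are printed only for RefSeq windows. The authors' column names were matched to the labels by group and number.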

Additional observations from a re-analysis of the deposited data

How the results depend on the processing

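The rule gave 24 genes as written, 12 with 10 added to both means in place of 1, 76 at a ratio of at least 8, 12 at a ratio of at least 32 and 15 by the lowest control over the highest dexamethasone library. Without each library in turn it gave 23 to 26, while scaling to the same total gave 28, quantile normalization 22. The median log2 ratio of -4.94 was -5.03 with 0.1 added, -4.04 with 10 added and -5.06 at the same total, and between -5.05 and -4.80 without each library in turn. Of 240 alternatives for single genes 19 moved the log2 ratio by at least the spread, 16 of them with 10 added, and the choice of the genes fixes their direction. The limma count of 3894 fell to 2170 with a mean of at least 100 (1350 higher, 820 lower), ran from 3888 to 3922 without each library in turn, and was 3944 with edgeR and 3870 with DESeq2. Replicate numbers did not pair the libraries (correlations of same-numbered deviations -0.0999, -0.1049 and -0.0199), and the replicate block gave 3897 calls. Few reads limited the ratios of Ndnf, Krtap1-5, Astn1, Gm48662 and Itgbl1.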
